A study of Mus musculus with 8 samples.

Results

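Foxp3 and 7 other genes that mark regulatory T cells (Treg) were followed through 8 one-colour microarrays of mouse RNA. The genes are Foxp3, Ikzf2, Ikzf4, Lrrc32, Gpr83, Nrp1, Ebi3 and Izumo1r, and each was found through the RefSeq accession of its probes, which gave 14 probes for these 8 genes, of 22911 genes with a named probe. Ikzf4 has 4 probes, Nrp1 has 3 and Izumo1r has 2, while the other genes have 1 each. The arrays of T cells hold CD4+ Treg and the other CD4+ T cells (nonTreg) from the ischemic brain of wild type (WT) mice at day 14 after stroke, and Treg and nonTreg from the spleen of untreated mice. The arrays of brain tissue hold the ischemic-side slice of DEREG and WT mice at day 14 after ischemia, and of DEREG and WT mice after sham surgery. DEREG mice carry a transgene in which Foxp3 regulatory sequence drives the diphtheria toxin receptor, so that toxin can deplete Treg. The labels do not say whether toxin was given, how Treg were told from nonTreg, whether animals were pooled, or the age and strain of the mice. If Foxp3 or another of these genes served to sort the cells, its difference between Treg and nonTreg was set by the sort.

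Each group has 1 array, so no difference below has a replicate check and no test was run. Values are background-subtracted spot signals multiplied by 1 factor per array, called scaled signals here. They can be compared between arrays for 1 probe but not between probes. A probe that the scanner software did not mark as well above background is reported as such, and a fold against it is then a lower bound, written "at least". The scanner's own error estimate was at most 20.7% of the signal for the probes of these genes that were well above background in the T cells. Probes printed several times on an array had a median SD of 0.0387 to 0.0422 on the log2 scale, which measures technical error only. The share of all probes that were well above background ran from 47.6% to 51.9% for T cells and from 62.0% to 65.1% for tissue. Beside the label of CD4+ T cells, 9 T cell marker genes were read, among them Cd3e and Cd4. All 9 were also well above background in the ischemic tissue of both genotypes, so that mark alone cannot check the label. All 9 stood well above background on every T cell array, with summed scaled signals of 191718 in brain Treg and 209418 in brain nonTreg, and 212700 in spleen Treg against 214610 in spleen nonTreg.

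Treg are CD4+ T cells that restrain other immune cells, and the transcription factor Foxp3 is required for their development and function in mice. Ikzf2 (Helios) and Ikzf4 (Eos) are zinc finger factors of the Ikaros family, and Eos acts with Foxp3 in gene silencing. Lrrc32 (GARP) holds latent TGF-beta on the surface of activated Treg. Nrp1 is a receptor for semaphorins and VEGF that marks many Treg of thymic origin, Gpr83 is a G protein-coupled receptor also expressed in the brain, and Izumo1r (folate receptor 4, Juno) marks Treg and also activated and follicular helper T cells. Ebi3 is the cytokine subunit shared by IL-27 and IL-35. In the stroke-injured brain of mice, Treg gather over weeks and have been linked to recovery.

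Foxp3 and its neighbours in this group differ in the sequence just before their starts. RefSeq promoter sequences on the GRCm38.p6 build were matched for 5 of the 8 genes, giving 6 windows of the 250 bases before a transcription start. The set below shows both annotated starts of Foxp3, and the windows of Gpr83 and Izumo1r, which lie next to each other on chromosome 9 with 0 genes between them and on opposite strands. The Foxp3 windows are chrX:7579426-7579675 and chrX:7580233-7580482, both on the plus strand. The Gpr83 window is chr9:14859960-14860209 on the plus strand, and the Izumo1r window is chr9:14903768-14904017 on the minus strand. Capitals mark the motif letters that were found.
Foxp3, first start: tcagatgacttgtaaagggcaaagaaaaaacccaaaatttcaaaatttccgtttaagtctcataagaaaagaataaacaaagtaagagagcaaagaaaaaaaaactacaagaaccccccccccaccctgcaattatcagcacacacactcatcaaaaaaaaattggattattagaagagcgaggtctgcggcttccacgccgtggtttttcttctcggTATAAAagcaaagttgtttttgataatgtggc
Foxp3, second start: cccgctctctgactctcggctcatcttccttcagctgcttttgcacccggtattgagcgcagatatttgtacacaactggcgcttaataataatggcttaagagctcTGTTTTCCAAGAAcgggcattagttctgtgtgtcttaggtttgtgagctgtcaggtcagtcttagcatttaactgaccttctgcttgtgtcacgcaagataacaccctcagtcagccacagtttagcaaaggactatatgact
Gpr83: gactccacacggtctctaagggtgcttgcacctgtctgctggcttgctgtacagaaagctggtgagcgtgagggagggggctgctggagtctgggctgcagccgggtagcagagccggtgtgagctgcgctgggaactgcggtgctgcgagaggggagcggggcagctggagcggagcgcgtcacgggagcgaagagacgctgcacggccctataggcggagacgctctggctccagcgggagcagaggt
Izumo1r: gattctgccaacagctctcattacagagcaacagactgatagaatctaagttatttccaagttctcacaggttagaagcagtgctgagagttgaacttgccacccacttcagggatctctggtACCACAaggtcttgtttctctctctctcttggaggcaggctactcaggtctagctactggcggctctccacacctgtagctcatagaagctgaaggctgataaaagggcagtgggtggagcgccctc

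The first Foxp3 window is 37.6% G and C and holds TATAAA 32 bases before the start, a motif present in 12.4% of 32851 mouse promoter windows of that length. In the second Foxp3 window, which is 46% G and C, matches to 3 motifs overlap within 13 bases. They are the forkhead motif TGTTTNC (in 17.8% of windows) at 143 bases before the start, the NFAT motif GGAAAA read on the opposite strand (20.4%) at 141 bases, and the STAT motif TTCNNNGAA (7.02%) at 139 bases. The Gpr83 window is 66.8% G and C with 18 CpG dinucleotides, against medians of 52.4% and 6 over all windows, and it held none of the 7 motifs searched. The Izumo1r window is 50% G and C with 2 CpG dinucleotides and holds the RUNX motif TGTGGT on the opposite strand, as ACCACA, 127 bases before the start (14.0% of windows). Both strands were searched, also for the ETS motif GGAAGT (19.7%) and the AP-1 motif TGANTCA (6.75%), which none of the 6 windows held. The windows of Ebi3 and Nrp1, 56% and 64.4% G and C, held none of the 7. A match is a run of letters and does not show binding.

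All 8 genes were well above background in brain Treg, brain nonTreg and spleen Treg with every probe. In spleen nonTreg, 6 of the 8 genes and 10 of the 14 probes were, and the genes that were not were Foxp3 and Lrrc32. The transcription factors are taken first. Foxp3 had a scaled signal of 3843 in brain Treg and 726 in brain nonTreg, and 7782 in spleen Treg against 12.2, not well above background, in spleen nonTreg. The spleen Treg array was thus the brightest for Foxp3, and the brain nonTreg array held a measurable amount. Foxp3 was 5.29-fold higher in brain Treg than in brain nonTreg (2.40 on the log2 scale) and at least 630-fold higher in spleen Treg than in spleen nonTreg (9.30 on the log2 scale, and 6.58 with normexp background correction of the median spot signal). The signal of brain nonTreg was 18.9% of that of brain Treg. In RNA pooled from many cells, fewer cells of a type and less RNA per cell cannot be told apart.

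Ikzf2 followed the same order of arrays with a smaller span. Its scaled signals were 3557 in brain Treg and 965 in brain nonTreg, and 4132 in spleen Treg against 379 in spleen nonTreg. Ikzf2 was 3.69-fold higher in brain Treg than in brain nonTreg and 10.9-fold higher in spleen Treg than in spleen nonTreg. Unlike Foxp3, it was well above background in spleen nonTreg, at 9.16% of the spleen Treg signal. Ikzf4, by its brightest probe, had 2472 in brain Treg and 522 in brain nonTreg, and 5114 in spleen Treg against 422 in spleen nonTreg. Both nonTreg arrays were close to each other and both Treg arrays lay above them, by 4.74-fold in the brain and 12.1-fold in the spleen. The other 3 Ikzf4 probes put Treg higher as well, by 2.85-fold to 5.35-fold in the brain. The 2 dim Ikzf4 probes, with 36.7 and 51.8 in brain Treg, were not well above background in spleen nonTreg.

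The Ikaros relatives did not share this pattern. Ikzf1 (Ikaros) and Ikzf3 (Aiolos), which act in lymphocyte development at large, differed by -0.82 and -0.08 on the log2 scale between brain Treg and brain nonTreg, and by -0.57 and 0.59 between spleen Treg and spleen nonTreg. With Ikzf5 and the corepressor Ctbp1, 0 of these 4 genes reached 2-fold in either organ.

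Among the surface proteins, Lrrc32 came closest to Foxp3. Lrrc32 had scaled signals of 10313 in brain Treg and 1732 in brain nonTreg, and 11196 in spleen Treg against 5.47, not well above background, in spleen nonTreg. The Treg arrays of both organs were nearly level, 1.09-fold apart, and only spleen nonTreg lacked a signal above background. Lrrc32 was 5.96-fold higher in brain Treg than in brain nonTreg, and its bound in the spleen was at least 906-fold with Treg higher, 9.82 on the log2 scale and 7.22 with normexp correction. The brain difference was the largest among the 8 genes, while the spleen bounds of Lrrc32 and Foxp3 rest on the floor of the spleen nonTreg array and have no order.

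Nrp1 separated Treg from nonTreg in the spleen more than in the brain. Its brightest probe gave 5821 in brain Treg and 3311 in brain nonTreg, and 5499.6 in spleen Treg against 807 in spleen nonTreg. Spleen nonTreg was thus the low array, and brain nonTreg lay near the Treg arrays. Nrp1 was 1.76-fold higher in brain Treg than in brain nonTreg, under the 2-fold used for counting here, and 6.81-fold higher in spleen Treg than in spleen nonTreg. Its other probes gave 1.33-fold and 1.76-fold in the brain, and 7.77-fold and 8.06-fold in the spleen.

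Gpr83 stood apart by organ. Its scaled signals were 425 in brain Treg and 111 in brain nonTreg, and 7264 in spleen Treg against 705 in spleen nonTreg, so that spleen nonTreg lay above brain Treg. Within each organ Treg were higher, by 3.82-fold in the brain and 10.3-fold in the spleen. Izumo1r, the gene beside Gpr83, also had its highest level in spleen Treg. Its brightest probe gave 14795 in brain Treg and 9791 in brain nonTreg, and 50903 in spleen Treg against 16665 in spleen nonTreg. The spleen nonTreg and brain Treg arrays were close to each other, and the order of these neighbours turned with the other probe, which gave 1231 in brain Treg and 799 in spleen nonTreg. Izumo1r was 1.51-fold higher in brain Treg than in brain nonTreg and 3.05-fold higher in spleen Treg than in spleen nonTreg, with 1.34-fold and 3.82-fold by the other probe.

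Ebi3, the secreted member, had the reverse order of organs. Its scaled signals were 4450.1 in brain Treg and 1791 in brain nonTreg, and 1313 in spleen Treg against 114 in spleen nonTreg. Brain nonTreg thus lay above spleen Treg, and spleen nonTreg was the low array. Ebi3 was 2.49-fold higher in brain Treg than in brain nonTreg and 11.5-fold higher in spleen Treg than in spleen nonTreg.

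**Figure D1:**
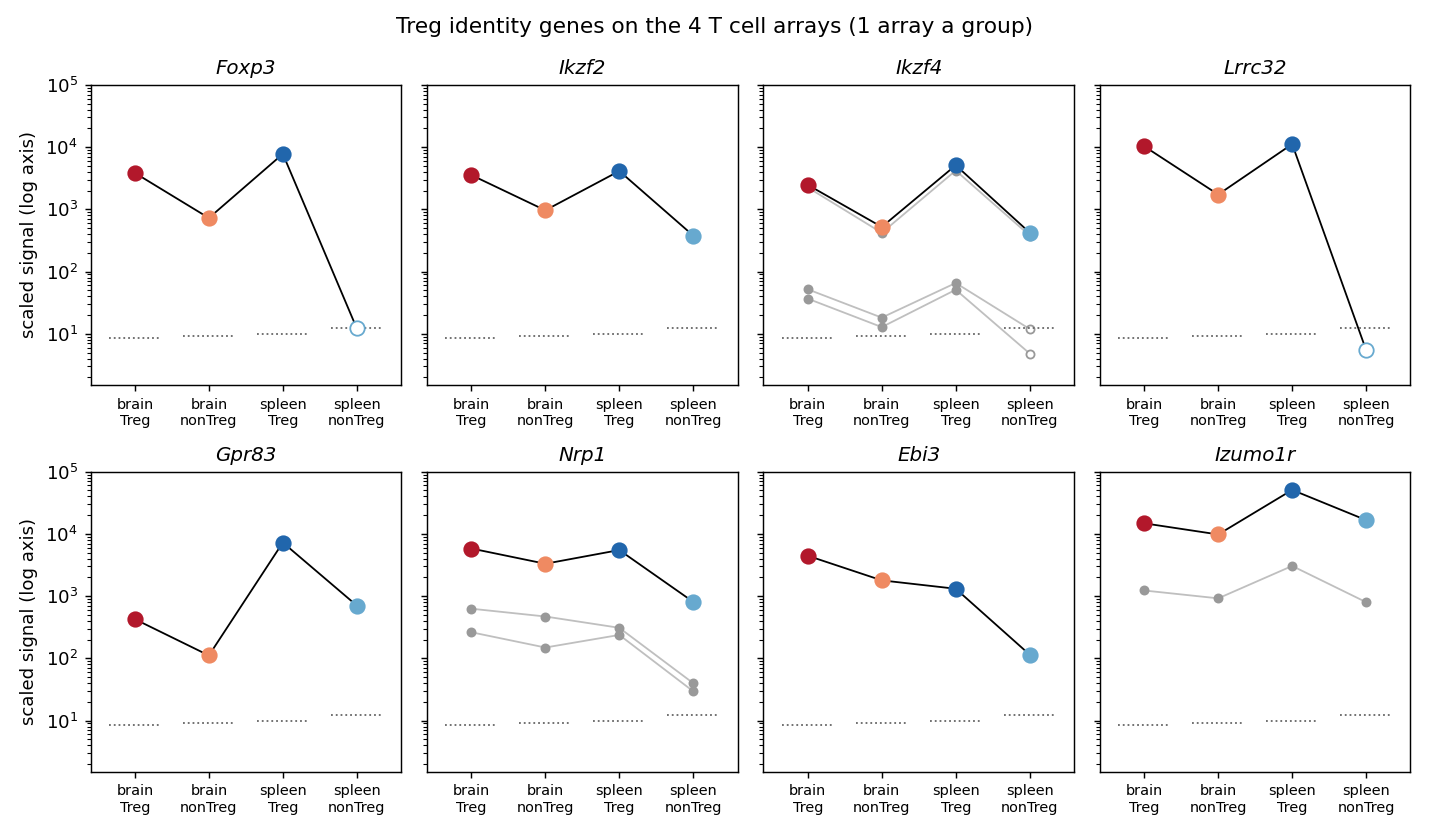
Scaled signal (log axis) of each of the 8 genes on the 4 T cell arrays, with 1 array a group and no error bar. Large points are the probe used for the gene, small grey points its other probes, open points are not well above background and dotted lines mark the lowest probe well above background on that array. Foxp3 (12.2) and Lrrc32 (5.47) are not well above background in spleen nonTreg.

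Between brain Treg and brain nonTreg, 6 of the 8 genes passed 2-fold with Treg higher and 0 with Treg lower, with Nrp1 and Izumo1r under 2-fold. Of the 13770 genes compared, 4.63% passed 2-fold upward and 2.86% downward. The median log2 difference of the 8 genes was 1.91, beside 0.01 over all genes. Between spleen Treg and spleen nonTreg, all 8 genes passed 2-fold with Treg higher, against a background of 5.34% of 12649 genes higher and 3.21% lower. Their median there was 3.48, beside -0.01 over all genes. Because these genes were listed for marking Treg, the counts show how the labelled Treg and nonTreg arrays differ in known markers.

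The gap between Treg and nonTreg was smaller in the brain than in the spleen for each gene that could be measured on all 4 arrays. The log2 gap in the brain minus that in the spleen was -2.21 for Ebi3, -1.95 for Nrp1, -1.57 for Ikzf2, -1.43 for Gpr83, -1.35 for Ikzf4 and -1.02 for Izumo1r. All 6 passed 2-fold below 0, the value of Izumo1r at the edge, where 3.79% of 11301 genes did and 2.3% passed 2-fold above 0. Their median was -1.50, beside 0.02 over all genes. Foxp3 and Lrrc32 could not enter, and their brain differences of 2.40 and 2.57 stand beside spleen bounds of 9.30 and 9.82. The further probes of Ikzf4, Nrp1 and Izumo1r that could be measured gave -1.05 to -2.54. The count was 5 under 5 of the alternative settings, with Izumo1r at -0.98 to -0.99 under 4 of them and Ikzf4 just under 2-fold as the median over probes. With 1 array a group this difference of differences has no error estimate.

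Expressed as a share of the Treg signal, the brain nonTreg signal differed between the genes. It was 16.8% for Lrrc32, 18.9% for Foxp3, 21.1% for Ikzf4, 26.2% for Gpr83 and 27.1% for Ikzf2. It was larger for Ebi3 (40.2%), Nrp1 (56.9%) and Izumo1r (66.2%). In the spleen the nonTreg share was 8.26% for Ikzf4, 8.72% for Ebi3, 9.16% for Ikzf2, 9.70% for Gpr83, 14.7% for Nrp1 and 32.7% for Izumo1r. By the probes used Izumo1r had the largest nonTreg share in both organs, while in the brain the highest shares among the other probes were 74.9% for Nrp1 and 74.8% for Izumo1r. In all, 6 genes had a nonTreg signal above background in the spleen library in which Foxp3 was not above background.

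**Figure D2:**
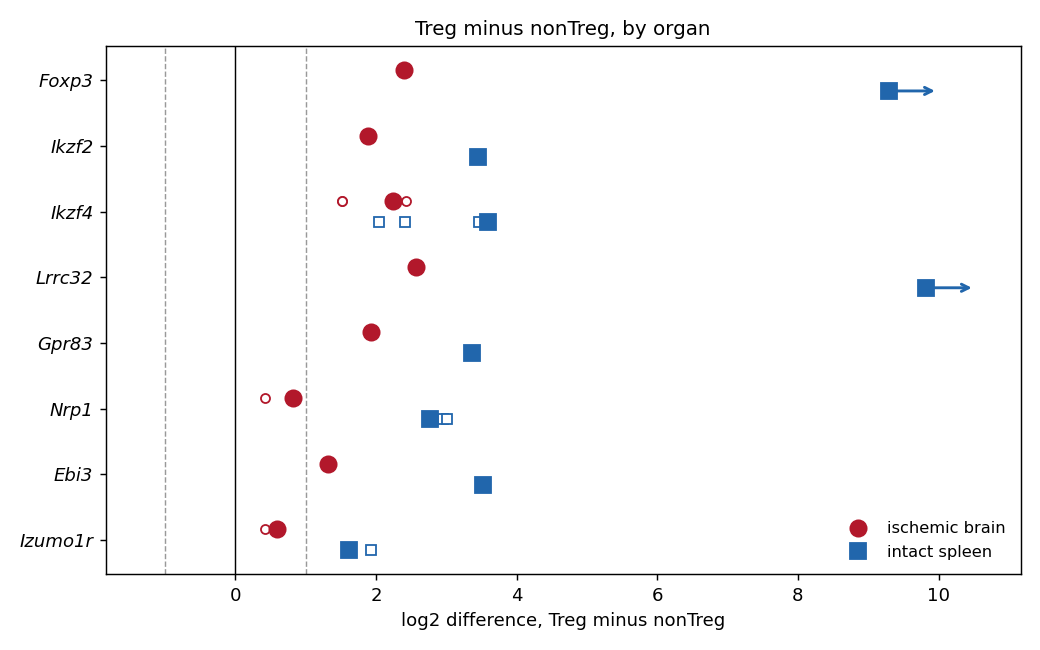
Log2 difference of Treg minus nonTreg for each gene in the ischemic brain (red circles) and the intact spleen (blue squares), 1 array a group. Filled points are the probe used, open points the other probes, arrows mark lower bounds of the probe used and dashed lines stand at 2-fold. The 2 dim Ikzf4 probes are also lower bounds in the spleen (2.05 and 2.41) but carry no arrow. The spleen point lies to the right of the brain point for every gene, with bounds of 9.30 for Foxp3 and 9.82 for Lrrc32.

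Other cells were measurable in the brain libraries, and their markers differed between brain Treg and brain nonTreg. All 8 macrophage and monocyte markers were well above background in both brain libraries, with summed scaled signals of 24525 in brain Treg and 10565 in brain nonTreg. In the spleen libraries 2 of the 8 were, with sums of 289 in spleen Treg and 308 in spleen nonTreg, and Lyz2, Adgre1 and Mrc1 were not above background in either. Of these 8 markers, 6 passed 2-fold with brain Treg above brain nonTreg (median 1.26). All 8 microglia markers were well above background in both brain libraries, and 7 of them passed 2-fold with brain Treg higher (median 1.34). In the spleen, Tmem119, P2ry12, Sall1 and Fcrls were not above background. Endothelial markers summed to 1488 in brain Treg and 2415 in brain nonTreg, and 0 of 7 were 2-fold higher in brain Treg. Ebi3 and Nrp1 are known in macrophages and other myeloid cells too, and Nrp1 in endothelium. The part of these cells in the brain values of the 8 genes was not tested.

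CD8 and NK markers lay on the nonTreg side. They summed to 10829 in brain Treg and 24986 in brain nonTreg, with 7 of 8 past 2-fold on the nonTreg side, and to 1884 in spleen Treg and 3655 in spleen nonTreg. T cell markers did not differ at 2-fold in any of the T cell comparisons (0 of 9 each), and Cd4 and Cd3e differed by -0.68 and -0.23 between brain Treg and brain nonTreg. The labels give no purity for the libraries, and the part of these cells in the results was not tested.

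Between the Treg of the 2 organs, the 8 genes did not move as a block. Ebi3 was 3.39-fold higher in brain Treg than in spleen Treg, and 4 genes passed 2-fold in the other direction. Gpr83 was 17.1-fold lower, Izumo1r 3.44-fold lower, Ikzf4 2.07-fold lower and Foxp3 2.03-fold lower. The differences of Ikzf2 (-0.22), Lrrc32 (-0.12) and Nrp1 (0.08 on the log2 scale, and -0.08 with quantile normalization) stayed under 2-fold. Of 13846 genes compared, 17.1% passed 2-fold with brain Treg higher and 11.7% with brain Treg lower. For so few genes, 1 of 8 higher is near that background. The 4 of 8 lower lie above it, but only 2 were lower with median scaling. The Foxp3 and Ikzf4 values lie at the edge of 2-fold, with -1.02 and -1.05 on the log2 scale. The Foxp3 difference was -0.94 and that of Ikzf4 -0.97 when arrays were scaled on their medians, and the other Ikzf4 probes gave -0.34 to -0.90. One further Nrp1 probe was 2.03-fold higher in brain Treg, and the median over the Nrp1 probes was 1.02 on the log2 scale.

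Between the nonTreg of the 2 organs, 5 genes passed 2-fold with the brain higher and 1 with the brain lower. Lrrc32 was at least 140-fold higher in brain nonTreg than in spleen nonTreg, and Foxp3 at least 58.8-fold higher. Ebi3 was 15.6-fold higher, Nrp1 4.10-fold higher and Ikzf2 2.55-fold higher. With normexp correction these values were smaller for Lrrc32 (4.58 against 7.13 on the log2 scale), Foxp3 (3.29 against 5.88) and Ebi3 (3.19 against 3.97). Gpr83 was 6.34-fold lower in brain nonTreg, and Ikzf4 (0.30) and Izumo1r (-0.77, and 0.20 by its other probe) stayed under 2-fold. The background was 17.6% of 13578 genes higher and 11.9% lower, and the median of the 8 genes was 1.69, beside 0.00 over all genes. The nonTreg library of the brain thus carried transcripts of Foxp3 and Lrrc32 that were not above background in that of the spleen, whereas its Ikzf4 level was close to that of the spleen. Beside these organ differences, all 8 macrophage and monocyte markers passed 2-fold with the brain higher, with medians of 5.73 in Treg and 4.17 in nonTreg. Of the endothelial markers compared 5 of 7 were likewise higher in Treg (median 1.75) and 6 of 7 in nonTreg (median 2.68). Of the dendritic cell markers 5 of 6 were higher in Treg (3.58), and in nonTreg 4 of 6 were higher and 1 lower (4.13). Their sums were 10103 in brain Treg and 8974 in brain nonTreg, but 11929 in spleen Treg and 20910 in spleen nonTreg. Of the microglia markers 6 of 8 were higher and 1 lower in Treg (3.79), and 5 of 8 were higher in nonTreg (2.34). The part of these cells was not tested.

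**Figure D3:**
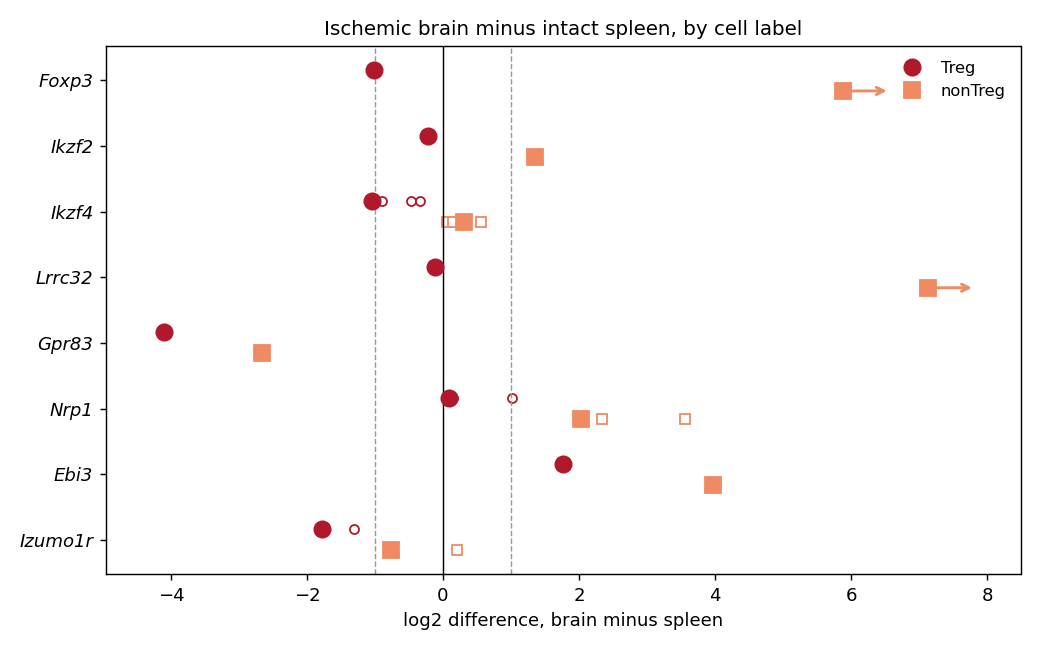
Log2 difference of ischemic brain minus intact spleen for each gene, in Treg (red circles) and nonTreg (orange squares), 1 array a group. Filled points are the probe used, open points the other probes, arrows mark lower bounds of the probe used and dashed lines stand at 2-fold. The 2 dim Ikzf4 probes are also lower bounds in nonTreg (0.05 and 0.56) but carry no arrow. Gpr83 lies below -2 in both cell labels, Ebi3 above 1 in both, and Foxp3 and Lrrc32 differ between the labels.

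The genes whose pattern over the 4 T cell arrays was most like that of Foxp3 were ranked by the root mean square distance of log2 scaled signals, each centred on the gene's own mean and with values under an array's floor set to it. Of 14292 genes, Lrrc32 was nearest to Foxp3, at 0.57, and Il2ra, the high-affinity chain of the IL-2 receptor, came next at 1.04. Rgs9 (1.66), Itgae, the CD103 integrin chain of tissue T cells (1.68), Coro2a (1.81), Myo1e (1.87), Lamc1 (1.95) and Tmem158 (1.96) followed. Of the other genes described here, Ebi3 ranked 17, Ikzf2 33, Ikzf4 63 and Nrp1 69, while Izumo1r ranked 1287 and Gpr83 5558. The distance is a description over 4 arrays of 1 group each, and it gives weight to genes that are dim in spleen nonTreg. Foxp3, Lrrc32, Rgs9 and Itgae were not above background in spleen nonTreg and share the floor value there. On the measured values with no floor, a setting chosen after seeing the data, Lrrc32 lay at 1.02 and Il2ra at 1.05, nearly level. Ttn, Rln3 and Sh3bgrl2 then ranked 4, 7 and 8, while Myo1e ranked 9, Lamc1 14 and Tmem158 16. The ranks of Ebi3, Ikzf2, Ikzf4 and Nrp1 became 31, 64, 98 and 104, and those of Izumo1r and Gpr83 1773 and 5923.

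**Figure D4:**
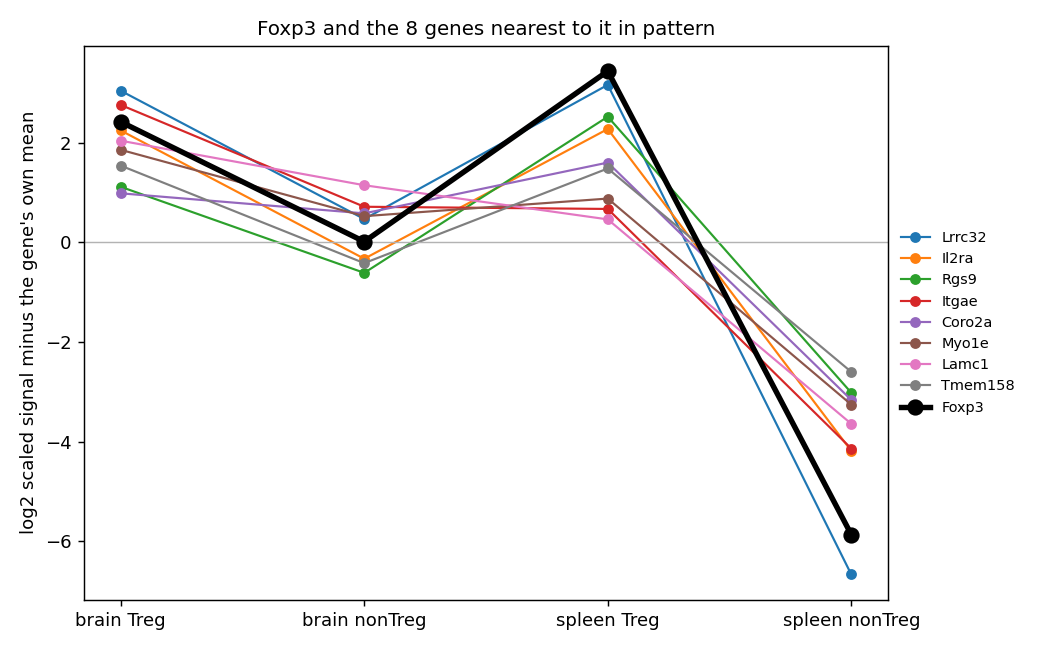
Log2 scaled signal minus the gene's own mean on the 4 T cell arrays, for Foxp3 (black) and the 8 genes nearest to it in pattern. Lrrc32 lies at a distance of 0.57 from Foxp3 and Il2ra at 1.04 (1.02 and 1.05 with no floor). Foxp3, Lrrc32, Rgs9 and Itgae share the floor value in spleen nonTreg before centring, so their plotted points there differ. All 9 genes are lowest in spleen nonTreg.

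The other genes had other neighbours. Nearest to Ebi3 were Cd83 (0.085) and Ctla4 (0.25), both genes of activated T cells, Cd83 also of dendritic cells. Nearest to Gpr83 was Gata1 (0.25), with scaled signals of 89.7 in brain Treg and 21.0 in brain nonTreg, and 1444 in spleen Treg against 208 in spleen nonTreg. Ikzf2 and Ikzf4 were near each other, at 0.49, with Ikzf4 at rank 17 from Ikzf2 and Ikzf2 at rank 12 from Ikzf4. Pdzk1ip1 (0.20) was nearest to Ikzf2 and Gm3002 (0.29) to Ikzf4, She (0.10) to Nrp1 and Hif3a (0.075) to Izumo1r.

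Of 18 other Treg genes, 9 in the brain and 17 in the spleen passed 2-fold with Treg above nonTreg, and 0 with Treg below, beside 4.63% and 5.34% of all genes higher. Il2ra had scaled signals of 5946 in brain Treg and 999 in brain nonTreg, and 6070.3 in spleen Treg against 69.0 in spleen nonTreg. Its differences were 5.95-fold in the brain and 88.0-fold in the spleen, and its brain nonTreg signal was 16.8% of the Treg signal, as for Lrrc32. Itgae (4.12-fold) and Swap70 (4.11-fold) followed in the brain, and Itgae (at least 28.0-fold) and Rgs1 (18.8-fold) in the spleen. Rgs1 differed by -0.08 on the log2 scale between brain Treg and brain nonTreg. Ctla4 and Tnfrsf18, which encode the receptors CTLA-4 and GITR, were 2.17-fold and 1.80-fold higher in brain Treg. Between organs, 12 of the 18 passed 2-fold with brain Treg above spleen Treg (median 1.39), where Foxp3 was lower, and 18 with brain nonTreg above spleen nonTreg (median 3.32), where Foxp3 was higher too. The shares of all genes higher were 17.1% in Treg and 17.6% in nonTreg.

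The 30 listed regulators and partners of Foxp3 were read between Treg and nonTreg, beside 4.63% of all genes higher and 2.86% lower in the brain and 5.34% higher and 3.21% lower in the spleen. In the brain 1 of 30 was at least 2-fold higher in Treg, Rel (2.15-fold), an NF-kappaB subunit needed for Foxp3 induction in mice, and 0 were lower (median 0.06). In the spleen 2 were higher and 3 lower in Treg, with Lef1 (-1.53) and Myb (-1.14) lower and Nr4a1 (1.13) higher on the log2 scale. A list of 7 follicular helper genes was read because Izumo1r also marks those cells, and Il21, their cytokine, was 6.53-fold lower in brain Treg than in brain nonTreg and 7.09-fold lower in spleen Treg than in spleen nonTreg. No other gene of that list reached 2-fold in the brain, and Pdcd1 (2.03-fold higher in Treg) did in the spleen.

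Partners of the surface and secreted proteins were read for the same comparisons. For Lrrc32, its cargo Tgfb1 differed by -0.07 on the log2 scale between brain Treg and brain nonTreg and by 0.40 between spleen Treg and spleen nonTreg. The integrin chain Itgb8, which activates that cargo on Treg, passed the background mark in both Treg libraries and in neither nonTreg library, with bounds of 3.84-fold in the brain and 5.76-fold in the spleen. Itgav, the chain it pairs with, was 1.45 higher on the log2 scale in brain Treg, and Tgfb3 was -3.07 in the spleen comparison. For Ebi3, the partner Il12a (IL-35) read 13.4 in brain Treg and 33.7 in brain nonTreg, 2.51-fold lower in Treg, and neither spleen library had it above background. Il27, the partner in IL-27, differed by -0.40 in the brain and -0.01 in the spleen. For Nrp1, its homolog Nrp2 differed by -0.06 and 0.06, the coreceptor Plxnd1 by 1.08 and 1.53, and the ligand Sema4a by -0.91 and -1.03, in the brain and the spleen in that order. Pcsk1n, the precursor of a Gpr83 ligand, differed by 0.49 and -0.26. Folr2, a folate receptor homolog of Izumo1r and a gene of resident macrophages, was 1.41 higher on the log2 scale in brain Treg and not above background in the spleen libraries.

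In brain tissue, 7 of the 8 genes were well above background after ischemia, with Foxp3 the exception. Foxp3 read 9.96 in DEREG ischemia, 2.86 in WT ischemia, 2.28 in DEREG sham and 2.64 in WT sham, and was not well above background on any tissue array. Its error estimate was 25.6% of the signal in DEREG ischemia, 87.1% in WT ischemia, 101% in DEREG sham and 100% in WT sham. The scanner's other mark, of a positive and significant signal, was set for Foxp3 on at least 1 tissue array. On which of them is not reported here, so that mark does not show Foxp3 in brain tissue at large. No difference in Foxp3 can be given between these groups, so its level in DEREG tissue could not be set against WT tissue. In sham brains 7 of the 8 genes were well above background in DEREG and 6 in WT, where Izumo1r was also not. T cell markers summed to 6733 in DEREG ischemia, 2268 in WT ischemia, 1964 in DEREG sham and 2019 in WT sham. Such a sum is led by its brightest probes. Of the 9 markers, 7 were at least 2-fold higher and 1 lower after ischemia in DEREG (median log2 difference 2.86). In WT 4 were higher and 1 lower (median 0.996). The shares of all genes were 22.4% higher and 22.1% lower in DEREG, and 18.8% and 18.4% in WT. Which cells of the tissue carried the detected genes was not tested.

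Nrp1, Ebi3 and Lrrc32 were higher after ischemia in both genotypes. Nrp1 read 8829 in DEREG ischemia, 7934 in WT ischemia, 1186 in DEREG sham and 1305 in WT sham. Ebi3 read 1862 in DEREG ischemia, 1619 in WT ischemia, 256 in DEREG sham and 275 in WT sham. Lrrc32 read 2247 in DEREG ischemia, 1635 in WT ischemia, 412 in DEREG sham and 408 in WT sham. In each genotype the ischemia array lay above the sham array for these 3 genes. Of all genes, 22.4% were at least 2-fold higher after ischemia in DEREG and 18.8% in WT. Ischemia over sham was 7.45-fold in DEREG and 6.08-fold in WT for Nrp1, 7.26-fold in DEREG and 5.89-fold in WT for Ebi3, and 5.45-fold in DEREG and 4.01-fold in WT for Lrrc32. All 8 macrophage and monocyte markers were at least 2-fold higher after ischemia in both genotypes, with sums of 251976 in DEREG ischemia, 208694 in WT ischemia, 15843 in DEREG sham and 17741 in WT sham. Their part in the higher Nrp1, Ebi3 and Lrrc32 was not tested.

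Gpr83 and Ikzf4 were lower after ischemia. Gpr83 read 648 in DEREG ischemia, 1266 in WT ischemia, 6654 in DEREG sham and 6198 in WT sham, 10.3-fold lower in DEREG and 4.90-fold lower in WT. Ikzf4 read 555 in DEREG ischemia, 683 in WT ischemia, 1495 in DEREG sham and 1436 in WT sham, 2.69-fold lower in DEREG and 2.10-fold lower in WT. Both genes were thus highest in the sham arrays. All 8 neuron markers were at least 2-fold lower after ischemia in both genotypes, with sums of 21856 in DEREG ischemia, 48532 in WT ischemia, 163106 in DEREG sham and 174685 in WT sham, and Pcsk1n differed by -2.18 in DEREG and -1.25 in WT. The part of neurons in the lower Gpr83 and Ikzf4 was not tested.

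Ikzf2 read 119.7 in DEREG ischemia, 95.9 in WT ischemia, 72.8 in DEREG sham and 61.1 in WT sham, under 2-fold in both genotypes. The Izumo1r probe used in tissue was the one called the other probe for the T cells, and the reverse. Izumo1r was dim in tissue, with 60.9 in DEREG ischemia, 48.6 in WT ischemia, 15.4 in DEREG sham and 6.20, not well above background, in WT sham. It was 3.96-fold higher after ischemia in DEREG and at least 4.04-fold higher in WT. With normexp correction the log2 differences were 0.74 in DEREG and, as a bound, 0.57 in WT, both under 2-fold, and the other probe gave bounds of 9.11-fold in DEREG and 1.51-fold in WT. In all, 4 of the 7 genes compared passed 2-fold upward after ischemia and 2 downward in DEREG, where 22.4% of 17161 genes were higher and 22.1% lower, and the same numbers were found in WT, where 18.8% of 16973 genes were higher and 18.4% lower. The median over all genes was -0.06 in DEREG and -0.14 in WT, and that of the 7 genes 1.99 in DEREG and 2.002 in WT. With normexp 3 genes were higher and 2 lower in DEREG, and 3 higher and 1 lower in WT.

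Between genotypes, 0 of the 7 genes reached 2-fold after ischemia, with differences of DEREG minus WT from -0.96 for Gpr83 to 0.46 for Lrrc32 on the log2 scale. The background was 2.36% of 16861 genes higher and 5.37% lower. Gpr83 was just under 2-fold, at 1.95-fold lower in DEREG, and 4 of 8 neuron markers were at least 2-fold lower in DEREG ischemia. The Izumo1r probe used for the T cells read 95.6 in DEREG ischemia and 18.2 in WT ischemia, 5.25-fold higher in DEREG. The probe used for Izumo1r in tissue, on which the count rests, differed by 1.25-fold. Of 9 T cell markers, 7 were at least 2-fold higher in DEREG ischemia than in WT ischemia (median 1.80). After sham surgery 0 of the 7 genes reached 2-fold, with differences from -0.14 to 0.35, where 0.588% of 16316 genes were higher and 0.447% lower.

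**Figure D5:**
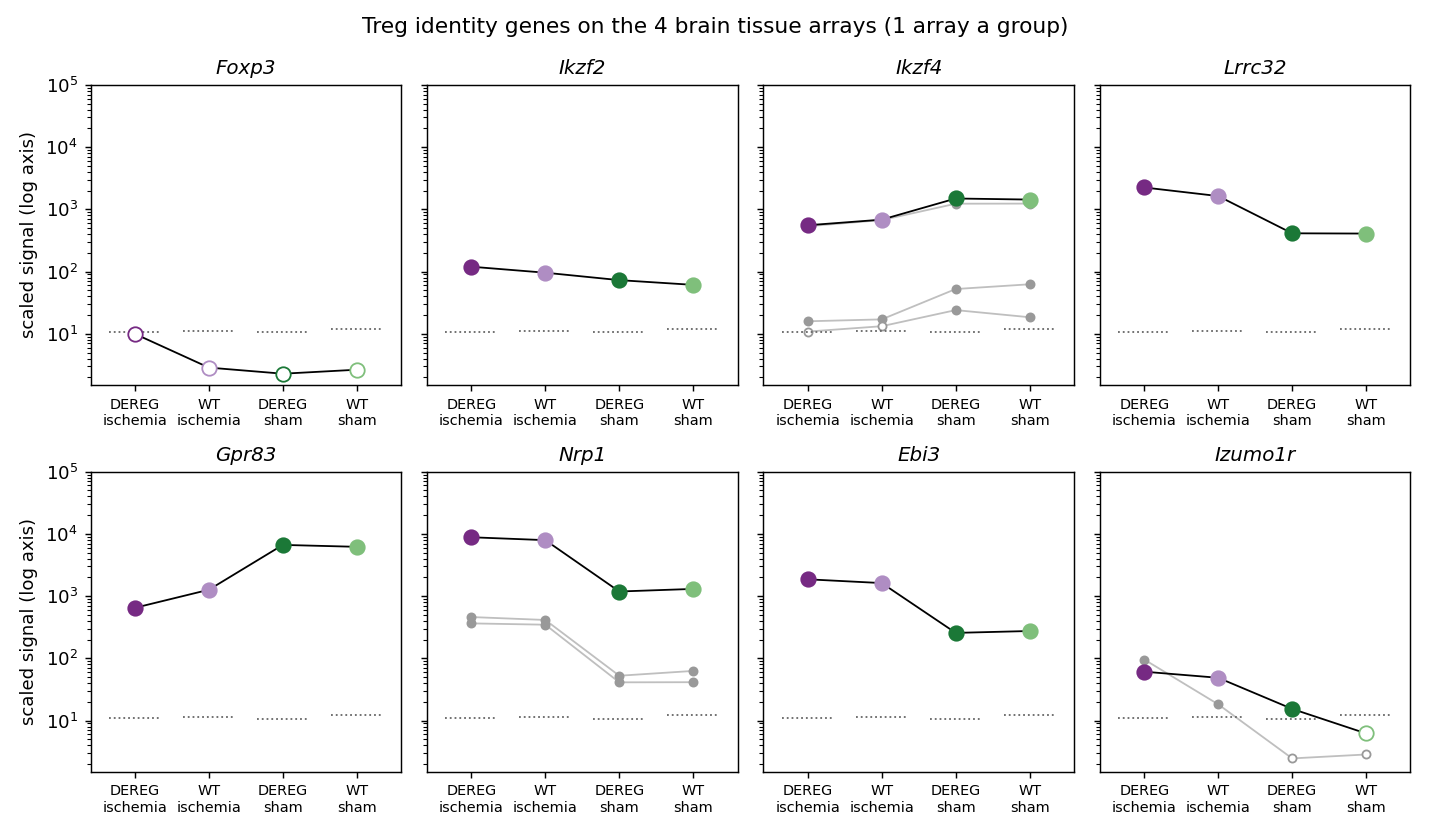
Scaled signal (log axis) of each of the 8 genes on the 4 brain tissue arrays, with 1 array a group and no error bar. Large points are the probe used for the gene, small grey points its other probes, open points are not well above background and dotted lines mark the lowest probe well above background on that array. Nrp1, Ebi3 and Lrrc32 are higher and Gpr83 and Ikzf4 lower in the ischemia arrays than in the sham arrays, and Foxp3 is not above background on any.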

How the data were processed

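RNA of 4 CD4+ T cell samples and 4 brain slices was labelled with 1 dye and hybridised to 8 arrays of 1 slide, 1 per group. The submitters' processing notes name Agilent Feature Extraction 10.7.1.1. Its processed intensity, as deposited, is a linear spot brightness with background subtracted and no scaling between arrays, per the file headers. The signal in the series table deposited by the authors was, judged from its values, that intensity over roughly the 75th percentile of its array (constant to 0.1% for 99.89% to 99.97% of probes, column medians 0.068 to 0.123). It served as an alternative.

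Probes (56605, of which 32994 had 1 symbol, 0 several and 23611 none) were named through RefSeq accessions, and RefSeq GRCm38.p6 coordinates are given for promoters only. Spots were averaged per probe, leaving out flagged ones. The log2 signal minus the array's 75th percentile was used, with the percentile from probes that passed the background mark on all 4 T cell arrays, or from all probes for tissue, whose scaled signals therefore cannot be set against those of T cells. The probe with the highest mean over a set of 4 arrays stood for its gene. For a bound, the dim side was set to its own value or to the lowest value well above background on its array, whichever was higher, and a gene was counted at 2-fold. The counting was tested on simulated data. Members and lists were chosen with earlier results of these data known. Named genes were all members, fixed partners, the 3 list genes with the largest Treg to nonTreg difference in each organ, and the nearest genes in pattern. Some genes so named, and the summed signal of the microglia markers, are not reported here. Alternatives were normexp (limma 3.58.1 in R 4.3.3, offset 50), run on the median spot signal since the files used hold no mean, quantile normalization, other scaling, other filters on dim probes, the median over probes and the deposited table. The number of arrays limits the precision. Python 3.11.15, numpy 2.4.6, pandas 2.3.3 and matplotlib 3.10.9 were used.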

Additional observations from a re-analysis of the deposited data

Results flagged for a closer look

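Treg and nonTreg of the 2 organs differed in opposite directions for 4 of the 8 genes by the probes used. For each of the 4, the Treg difference, the nonTreg difference or both passed 2-fold. How often all genes meet this rule was not counted. The 4 of 8 thus has no background to be read against. Foxp3 was lower in brain Treg than in spleen Treg (-1.02 on the log2 scale) and higher in brain nonTreg than in spleen nonTreg (at least 5.88). Lrrc32 gave -0.12 in Treg and at least 7.13 in nonTreg, Ikzf2 gave -0.22 in Treg and 1.35 in nonTreg, and Ikzf4 gave -1.05 in Treg and 0.30 in nonTreg. Each label has 1 array per organ, so the difference between the labels was not tested, and the Treg values of Lrrc32 and Ikzf2 are near 0. The other Izumo1r probe gave -1.31 in Treg and 0.20 in nonTreg, and Nrp1 gave -0.08 in Treg and 2.001 in nonTreg with quantile normalization. All 8 macrophage and monocyte markers were at least 2-fold higher in the brain than in the spleen for both labels, and their part was not tested.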

How the results depend on the processing

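With 37 member differences at or past 2-fold, 8 alternatives gave 291 values, of which 282 stayed at 2-fold, 9 did not and 0 turned direction. All alternatives reuse the same arrays, and some could change little by construction. Member values moved by less than 0.0597 on the log2 scale were 54 of 54 with only probes measured on both arrays. They were 56 of 60 without a filter and 60 of 60 in the deposited table. The 9 concerned Foxp3 in brain Treg against spleen Treg (-0.99 with the other probe set for the percentile, -0.94 with median scaling, -0.99 in the deposited table), Ikzf4 there (-0.97 with median scaling, -0.62 as the median over probes), Ikzf4 in WT ischemia against WT sham (-0.97 with normexp, -0.98 with the other probe set) and Izumo1r after ischemia with normexp (0.74 in DEREG, 0.57 in WT). The cause was not tested. The count of members at 2-fold in brain Treg against spleen Treg was 5 (1 higher, 4 lower), 3 with median scaling, 4 (1 higher, 3 lower) with the other probe set or the deposited table, and 5 (2 higher, 3 lower) as the median over probes. In DEREG ischemia against WT ischemia it was 0, and 1 without a filter (Foxp3, not well above background on either array) or as the median over probes (Izumo1r). In DEREG sham against WT sham it was 0, and 1 without a filter. The gap between Treg and nonTreg passed 2-fold in 6 genes, and in 5 with quantile normalization, the other probe set, median scaling, the median over probes or the deposited table.

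Genes at 2-fold over the whole array differed between settings, where normexp also starts from the median spot signal and the count without a filter takes in dim genes: in brain Treg against brain nonTreg 637 were higher and 394 lower, against 174 and 103 with normexp and 1271 and 997 without a filter. In spleen Treg against spleen nonTreg 675 were higher and 406 lower, against 252 and 133 with normexp and 1309 and 1152 without a filter. Median scaling moved the median of all genes in WT ischemia against WT sham to -0.30, against -0.14. Tissue detection, where a mark on at least 1 tissue array was enough, was 7 genes. It was 8, Foxp3 included, with the scanner's other mark of a positive and significant signal. With no floor, a setting chosen after seeing the data, the pattern distance to Foxp3 was 1.02 for Lrrc32 (0.57 with it) and 1.05 for Il2ra (1.04 with it). No paired analysis was possible because each group has 1 array and the labels give no replicate numbers.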
